A study of Homo sapiens with 31 samples.

Results

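The members of this gene group are 10 genes for surface proteins or enzymes through which a tumour cell signals to T cells, macrophages and natural killer (NK) cells: CD274, PDCD1LG2, CD276, VTCN1, NT5E, CD47, MICA, MICB, ULBP2 and PVR. They were taken by gene symbol, 10 of 19221 genes of the table, and all 10 had a row. mRNA was sequenced from 31 libraries of 2 cell lines, which the study used as ovarian cancer lines, and their derivatives. The paper itself questions the use of C13* given its origin and cites A2780 as an unlikely high-grade serous line. C13*, a line resistant to cisplatin, carried a control shRNA (C13* shCON, n = 7 libraries) or an shRNA against CEBPB, the gene for the transcription factor C/EBPβ (C13* shCEBPB, n = 8). A2780 was sequenced as the untreated parent line (A2780, n = 8) and as a strain grown under rising olaparib, an inhibitor of poly(ADP-ribose) polymerase, until it was resistant (A2780 OlaR, n = 8). All libraries came from cells cultured in the same medium, and the labels name no immune cells and no interferon treatment. Each derivative is 1 strain or 1 shRNA, and the labels do not say that libraries came from separate cultures, so p-values measure the spread between these libraries, which may be technical.

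PD-L1 (CD274) and PD-L2 (PDCD1LG2) engage PD-1 on T cells and restrain them, and the B7 family members B7-H3 (CD276) and B7-H4 (VTCN1) also limit T cell responses. CD73 (NT5E) makes adenosine, which damps lymphocytes, outside the cell, and CD47 binds SIRPα on macrophages and holds back phagocytosis. MICA, MICB and ULBP2 are stress ligands that activate NK cells through NKG2D, while PVR (CD155) binds both the activating receptor DNAM-1 and the inhibitory receptor TIGIT. The values below are FPKM, counts of read fragments divided by gene length and library size, so levels of different genes can be set side by side per length. A log2 change is the difference of the group means of log2(FPKM + 1), which understates the change of low genes. A gene was tested in a comparison if at least 7 (C13*) or 8 (A2780) libraries reached 1 FPKM, and it was called if limma gave an adjusted p under 0.05. A gene below 1 FPKM in every library of a group could enter only through the other group, so the filter set its direction.

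The whole profiles did not sort by the labelled cell line. Over all 19221 genes, the group means of C13* shCON and A2780 OlaR correlated at r = 0.9961, those of the 2 groups labelled C13* at 0.8899 and those of the 2 groups labelled A2780 at 0.8555 (Pearson r across genes, which are not independent). The summed FPKM of 6 squamous epithelial markers was 3102 to 3683 in C13* shCON and 2959 to 3844 in A2780 OlaR, but 220 to 525 in C13* shCEBPB and at most 2.13 in A2780. In C13* shCEBPB that sum was KRT17 (mean 250) and SFN (129), while KRT5, KRT6A, KRT14 and TP63 had means of at most 0.0791. The 6 epithelial markers summed to 2320 to 2567, 2537 to 3055, 1776 to 2149 and 85.1 to 93.4 in the same order of groups, the 5 mesenchymal markers to 47.4 to 54.9, 36.5 to 43.7, 354 to 383 and 858 to 899, and the 7 ovarian and Müllerian markers to 35.7 to 41.9, 27.1 to 38.6, 998 to 1104 and 14.9 to 18.6. Most of the mesenchymal sum was VIM in C13* shCEBPB (mean 342) and A2780 (809), where ZEB1 was also highest. SNAI2 went the other way (15.8, 13.4, 5.47 and 0.571 in the same order). FN1 was lowest in A2780 (0.524), and CDH2 was lowest in C13* shCEBPB (7.56) and highest in A2780 (58.5). EPCAM, KRT19 and CDH1 had means below 1 in C13* shCEBPB, while KRT7, KRT8 and KRT18 were higher there than in C13* shCON. Most of the epithelial sum in A2780 was KRT18 (mean 81.4). FOLR1 alone made up 85.0% of the ovarian and Müllerian sum in C13* shCEBPB (887 ± 49.9, against 1.2 ± 0.351 in C13* shCON), and MSLN was at 154 ± 34.7 and 30.7 ± 2.51 in the same groups. PAX8, another marker of that lineage, went the other way, at 6.10 ± 0.234 in C13* shCON, 6.0 ± 0.618 in A2780 OlaR, 0.536 ± 0.102 in C13* shCEBPB and 0.555 ± 0.117 in A2780 (SD). The 11 immune cell markers summed to at most 1.82 in all groups but A2780 (78.3 to 103), where PTPRC alone had a mean of 85.9 and was the only one of them to reach a mean of 1. The 7 endothelial and fibroblast markers summed to 336 to 396 in A2780, of which COL3A1 had 358 ± 18.5, and to at most 24.4 elsewhere. CEBPB itself was at 47.1 ± 9.05 in C13* shCEBPB and 85.8 ± 9.93 in C13* shCON, a log2 change of −0.87 (limma, adjusted p = 1.42e-06), with no overlap of libraries, and at 99.7 ± 7.63 in A2780 and 112 ± 11.6 in A2780 OlaR. The comparisons below keep the labels, and a change of CEBPB, of olaparib resistance and of the cells' whole profile cannot be told apart in them. Libraries were tied to groups by the labels alone, through the library codes they give, and whether libraries or lines were exchanged was not tested, so each change below is a difference between groups as labelled. One C13* shCON library (replicate 1) has A2780 in its cell line field and C13* in its title, and leaving it out changed the call of no member. FPKM hold no read totals, so absolute depth is unknown. Relative depth was estimated from 1674 low genes, with a spread of 1.37-fold between libraries. That estimate kept only ratios between libraries close to 1, so it could not have shown a much larger difference in depth.

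In C13* shCEBPB against C13* shCON, 7 of the 9 members tested were called, 5 lower (NT5E, PDCD1LG2, CD47, ULBP2 and CD274) and 2 higher (CD276 and MICB), while MICA and PVR were not called and VTCN1 was too low to be tested. That count stands beside a background in which 84.7% of 12006 genes tested were called, 45.7% lower and 38.9% higher, so a call is no mark of these genes. The median log2 change of the 9 members was −0.99, and that of all genes tested was −0.07. In A2780 OlaR against A2780, all 8 members tested were called, 5 lower (MICB, ULBP2, MICA, PVR and CD276) and 3 higher (NT5E, CD47 and CD274), against 89.8% of 12458 genes tested (49.7% lower and 40.1% higher). The median log2 change of those 8 members was −0.61, and that of all genes was −0.12. Every library of one group lay beyond those of the other for 7 of 9 members in the first comparison (66.0% of all genes tested) and for 6 of 8 in the second (74.1%). With a change of at least 2-fold on the same scale, 4 of 9 members passed in the first comparison, where 29.5% of all genes tested did, and 2 of 8 in the second, where 35.7% did. PDCD1LG2 was at most 0.0938 FPKM in C13* shCEBPB and entered the first comparison only through C13* shCON, so the filter set its direction. It is held in the median and in the called, lower, non-overlapping and 2-fold counts of that comparison. The plot of FPKM by library shows every value behind these counts.

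**Figure D1:**
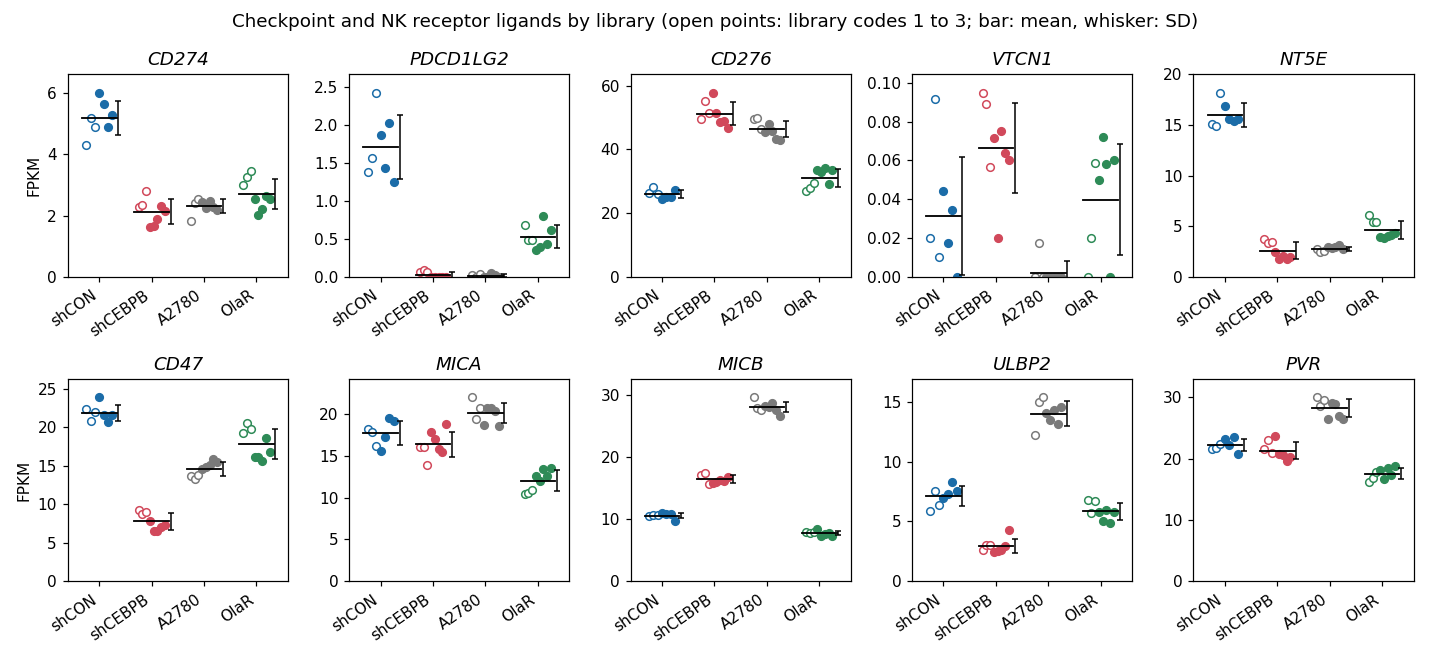
FPKM of each of the 10 genes (vertical axis, linear from 0, own scale per gene) in the 31 libraries of C13* shCON, C13* shCEBPB, A2780 and A2780 OlaR. Points are libraries, open for library codes 1 to 3 and filled for codes 4 to 8, the horizontal bar is the group mean and the whisker 1 SD. NT5E sits at 14.9 to 18.2 in C13* shCON and at no more than 6.10 in any other library, and MICB at 26.8 to 29.7 in A2780 and at no more than 17.5 elsewhere.

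NT5E had the largest change of the members in the first comparison. Its FPKM was 14.9 at the lowest, 15.5 at the median and 18.2 at the highest in C13* shCON, and 1.75, 2.29 and 3.78 in C13* shCEBPB. No library of one group came near the other, and the ratio of the means was 6.19 in favour of shCON. The log2 change was −2.27 ± 0.12 (SE, 95% CI −2.52 to −2.03, limma adjusted p = 2.34e-12). The exact two-sided permutation test over libraries gave p = 0.000311, the smallest value that 7 against 8 libraries allow. In A2780 the lowest, median and highest FPKM were 2.49, 2.80 and 3.10, and in A2780 OlaR 3.81, 4.23 and 6.10, again without overlap, at a log2 change of +0.57 ± 0.07 (limma adjusted p = 7.82e-07). The libraries with codes 1 to 3 gave +0.89 and those with codes 4 to 8 +0.37, both called. NT5E thus fell in the one comparison and rose in the other, and the 2 groups at the low end, A2780 and C13* shCEBPB, were not separated (log2 difference 0.11, adjusted p = 0.290 in the fit of 4 groups). The gene is at chr6:85449584-85495791 on the plus strand (hg38), with 9 exons in its main transcript.

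The other genes of the adenosine pathway went both ways. Of 11 listed, 9 were tested in the first comparison, 4 rose, 4 fell and 1 was not called, and 10 were tested in the second, 4 higher and 6 lower, with list medians of −0.11 and −0.30. ADORA2B, a receptor for adenosine, was at 119 ± 4.09 FPKM in C13* shCON against 5.29 ± 0.376 in C13* shCEBPB, and at 108 ± 3.38 in A2780 OlaR against 6.39 ± 0.379 in A2780, log2 changes of −4.26 and +3.89 (limma adjusted p = 1.02e-22 and 2.56e-25). ENTPD3, which breaks down extracellular ATP on the way to AMP, fell from 2.17 to 0.0700 with shCEBPB. SLC29A1, a nucleoside transporter, rose from 18.7 ± 1.4 to 39.2 ± 1.46. In the second comparison ADORA1 was at 5.26 ± 0.419 in A2780 and 0.0468 in A2780 OlaR, and ENTPD2, another ATP-degrading enzyme, at 0.0320 and 3.56 ± 0.335.

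CD274 was highest in C13* shCON, at 4.32, 5.19 and 6.02 FPKM (lowest, median and highest). In C13* shCEBPB it was at 1.63, 2.22 and 2.81, below every shCON library. The log2 change was −0.99 ± 0.08 (limma adjusted p = 1.77e-09, exact permutation p = 0.000311). In A2780 it was at 1.81, 2.35 and 2.53 and in A2780 OlaR at 2.01, 2.59 and 3.46, and these ranges overlapped. That log2 change was +0.16 ± 0.07 (95% CI 0.00 to 0.31) with a limma adjusted p of 0.0492, just inside the threshold, and an exact permutation p of 0.0656. The call was lost in 8 of 10 alternatives, with adjusted p from 0.000114 to 0.727 over all of them. The rise lay in the libraries with codes 1 to 3 (2.99 to 3.46 in A2780 OlaR, log2 change +0.39), since the 5 libraries with codes 4 to 8 gave +0.02 (adjusted p = 0.727). PDCD1LG2, its neighbour on chromosome 9, was low throughout. In C13* shCON the 7 libraries had 1.26, 1.57 and 2.43 FPKM (lowest, median and highest), whereas 5 of the 8 C13* shCEBPB libraries were listed at 0 and the other 3 at 0.0598, 0.0601 and 0.0938. Its log2 change was −1.39 ± 0.07 (limma adjusted p = 4.17e-12), and it passed the filter on low values only through the shCON libraries. With a pseudocount of 0.1 or 0.01 in place of 1 the change was −3.86 or −6.27, so its size is set by the pseudocount. In A2780, 4 of 8 libraries were listed at 0 and the highest was 0.0488, and in A2780 OlaR the values ran from 0.360 to 0.805, too low to be tested in that comparison alone, with no overlap (exact permutation p = 0.000155, the smallest value that 8 against 8 libraries allow).

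CD274 is at chr9:5450503-5470566 and PDCD1LG2 at chr9:5510531-5571282, both on the plus strand with 7 exons in the main transcript. Interferon gamma is the classical inducer of CD274. The 250 bases before the CD274 start site (RefSeq, GRCh38.p14, chr9:5450292-5450541, plus strand) are shown because they hold 2 overlapping matches to an interferon response motif (GAAA, any 2 bases, GAAA) on the opposite strand, and the capitals mark both.
CD274: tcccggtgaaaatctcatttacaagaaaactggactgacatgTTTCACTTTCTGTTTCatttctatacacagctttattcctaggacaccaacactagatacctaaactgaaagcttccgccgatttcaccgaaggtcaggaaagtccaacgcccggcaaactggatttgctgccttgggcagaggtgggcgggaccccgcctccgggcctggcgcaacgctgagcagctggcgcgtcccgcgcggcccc
The matches begin 208 and 202 bases before the start site. The motif was in 3.57% of 35116 promoters (250 bases before to 50 after the start site, both strands) and in that of 1 of the 9 members with a promoter entry. Of 12 listed genes of PD-L1 surface stability and interferon gamma signalling, all 12 were tested in the first comparison, where 9 fell, 2 rose and 1 was not called, with a list median of −0.86. IRF2, a repressor and activator of interferon genes, fell from 19.4 ± 0.693 to 3.17 ± 0.408 FPKM, IRF1 from 15.1 ± 0.638 to 5.26 ± 0.614, and CMTM6, which keeps PD-L1 at the surface, from 35.1 ± 2.06 to 14.5 ± 2.09. In A2780 OlaR against A2780, 11 were tested, of which 5 rose, 4 fell and 2 were not called, with a list median of +0.11. IRF1 rose from 2.62 ± 0.230 to 14.4 ± 1.14 FPKM, MYC from 34.1 ± 1.15 to 141 ± 6.11 and STAT3 from 24.8 ± 1.01 to 70.8 ± 1.66, at log2 changes of 2.09, 2.02 and 1.47.

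CD276 and VTCN1 are the other B7 members of the group. CD276 had the highest mean of the 10 members in every group, and its changes had the opposite directions to those of CD274. It was at 24.5, 25.8 and 28.1 FPKM in C13* shCON (lowest, median and highest) and at 46.7, 50.4 and 57.8 in C13* shCEBPB, a log2 change of +0.95 ± 0.05 (limma adjusted p = 2.22e-12). Libraries of A2780 were at 42.9, 46.0 and 49.7 and in A2780 OlaR at 27.1, 31.2 and 34.1, a log2 change of −0.57 ± 0.05 (limma adjusted p = 3.66e-09). Neither pair of groups overlapped. VTCN1, which many ovarian tumours express, was at most 0.0950 FPKM in any of the 31 libraries and was listed at 0 in 7 of 8 A2780 libraries, so no direction is given. CD276 is at chr15:73683966-73714514 (plus strand, 10 exons) and VTCN1 at chr1:117143587-117210960 (minus strand, 6 exons). Of 6 further B7 genes listed, 3 were tested in each comparison. With shCEBPB, NCR3LG1 (B7-H6, a ligand of the NK receptor NKp30) rose from 4.63 ± 0.366 to 11.6 ± 3.03 and ICOSLG, which costimulates T cells, from 1.92 ± 0.185 to 5.0 ± 0.827, and 1 gene fell. In A2780 OlaR against A2780, NCR3LG1 fell from 18.7 ± 0.952 to 3.45 ± 0.188, VSIR (VISTA) rose from 2.90 ± 0.233 to 9.30 ± 0.499, and 1 gene was not called.

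CD47 was at 20.7, 21.6 and 23.9 FPKM (lowest, median and highest) in C13* shCON and at 6.54, 7.57 and 9.30 in C13* shCEBPB. The ranges were far apart, at a ratio of means of 2.80 and a log2 change of −1.39 ± 0.07 (limma adjusted p = 2.15e-12). Levels in A2780 were 13.3, 14.7 and 15.9 and in A2780 OlaR at 15.6, 17.7 and 20.6, where the ranges overlapped and the log2 change was +0.27 ± 0.06 (limma adjusted p = 0.000240, exact permutation p = 0.000311). That rise was +0.51 among codes 1 to 3 and +0.12 among codes 4 to 8 (adjusted p = 0.0256). CD47 is at chr3:108043091-108091862 on the minus strand, with 11 exons. Of 7 other listed phagocytosis signals, 6 had a row and 5 were tested in each comparison, 3 higher and 2 lower with shCEBPB and 2 higher, 1 lower and 2 not called in A2780 OlaR, with list medians of +0.40 and +0.05. THBS1, a secreted ligand of CD47, fell with shCEBPB from 76.0 ± 1.84 to 5.47 ± 1.05 FPKM and was at 0.361 ± 0.0801 in A2780 and 90.1 ± 2.34 in A2780 OlaR. LRP1, a receptor for engulfment signals, rose from 6.69 ± 0.425 to 28.0 ± 2.78 with shCEBPB. QPCTL, the glutaminyl cyclase that modifies CD47, rose with shCEBPB from 13.1 ± 0.560 to 22.3 ± 2.44 (log2 change +0.72, limma adjusted p = 4.99e-09) and was at 12.2 ± 0.870 in A2780 and 12.6 ± 0.680 in A2780 OlaR, which was not called. Its relative QPCT fell from 2.97 ± 0.379 to 0.0323 with shCEBPB and was at 0.313 ± 0.138 in A2780 and 2.34 ± 0.214 in A2780 OlaR.

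The NKG2D ligands MICA and MICB lie next to each other in the MHC region. They differed in the first comparison, while both fell in the second. MICB was at 9.68, 10.7 and 11.03 FPKM (lowest, median and highest) in C13* shCON and at 15.7, 16.3 and 17.5 in C13* shCEBPB. The groups did not overlap, and the log2 change was +0.59 ± 0.04 (limma adjusted p = 1.17e-10). In A2780 it was at 26.8, 28.1 and 29.7 and in A2780 OlaR at 7.30, 7.80 and 8.38, a ratio of means of 3.62 and a log2 change of −1.73 ± 0.03 (limma adjusted p = 2.94e-20), the largest of the members in that comparison. MICA was at 15.5, 17.8 and 19.4 in C13* shCON and at 13.9, 16.1 and 18.8 in C13* shCEBPB, which overlapped. Its log2 change of −0.10 ± 0.06 was not called (95% CI −0.23 to 0.03, limma adjusted p = 0.125, exact permutation p = 0.111), and the interval reaches a fall of 0.23. In A2780 it was at 18.6, 20.5 and 21.99 and in A2780 OlaR at 10.5, 12.3 and 13.6, a fall of 0.70 on the log2 scale (SE 0.06, limma adjusted p = 3.38e-10) without overlap. Both promoters are shown because these neighbours are related genes of which MICB rose and MICA was not called with shCEBPB. The capitals mark CCAAT boxes, here read on the opposite strand as ATTGG (250 bases before the start site, RefSeq, GRCh38.p14, plus strand, chr6:31403345-31403594 for MICA and chr6:31497895-31498144 for MICB).
MICA: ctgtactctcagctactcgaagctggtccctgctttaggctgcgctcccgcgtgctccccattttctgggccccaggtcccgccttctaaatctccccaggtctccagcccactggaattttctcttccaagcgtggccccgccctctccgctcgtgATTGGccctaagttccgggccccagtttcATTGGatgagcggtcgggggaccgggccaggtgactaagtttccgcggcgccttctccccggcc
MICB: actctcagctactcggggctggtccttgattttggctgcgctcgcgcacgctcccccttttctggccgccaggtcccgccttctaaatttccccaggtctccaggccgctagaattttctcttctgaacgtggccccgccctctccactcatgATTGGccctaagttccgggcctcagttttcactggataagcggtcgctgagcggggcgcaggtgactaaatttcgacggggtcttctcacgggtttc
MICA held matches 93 and 64 bases before its start site and MICB held 1, 97 bases before. The box was in 34.6% of all 35116 promoters and in those of 5 of 9 members. MICA spans chr6:31399784-31415315 and MICB chr6:31494881-31511124, both on the plus strand with 6 exons in the main transcript. Of windows of 50 bases in the MICA and MICB transcripts, 2.50% and 2.96% also occurred in another gene. MICA exons overlap a lncRNA over 62 bases and a Y RNA over 94 bases, and MICB exons overlap MICB-DT, on the opposite strand, over 55 bases. Both genes vary between people and the reads were mapped to 1 reference, so reads from a distant allele may have been lost in either cell line.

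ULBP2 was the only member with a called change of the same sign in both comparisons. It was at 5.88, 7.33 and 8.32 FPKM (lowest, median and highest) in C13* shCON and at 2.48, 2.80 and 4.29 in C13* shCEBPB, a log2 change of −1.05 ± 0.09 (limma adjusted p = 2.01e-09). Its A2780 values were 12.2, 14.2 and 15.4 and in A2780 OlaR at 4.84, 5.82 and 6.76, a log2 change of −1.14 ± 0.06 (limma adjusted p = 6.73e-13). No libraries overlapped in either, and the exact permutation p was 0.000311 and 0.000155, the smallest possible. The difference between the 2 changes was 0.09 (95% CI −0.13 to 0.31, adjusted p = 0.417). The gene spans chr6:149942014-149949235 on the plus strand, with 5 exons. Of the 50-base windows of its transcript, 32.6% also occur in another gene, 29.7% in RAET1L and 11.7% in RAET1G, so reads from these relatives could have been counted for it. RAET1L was at no more than a mean of 0.296 and RAET1G of 1.24 in any group. Of 5 other NKG2D ligands listed, 2 were tested in the first comparison and both rose. Among those too low to be tested, ULBP1 was at 0.769 to 1.21 FPKM in C13* shCON and 0.151 to 0.396 in C13* shCEBPB. RAET1G was at 0.587 to 1.13 and 0 to 0.203 in the same groups, and RAET1L overlapped. The rise thus holds only for the genes that passed the filter. In the second comparison 4 were tested, 1 higher, 2 lower and 1 not called. ULBP1 was at 25.3 ± 0.802 FPKM in A2780 and 1.01 ± 0.107 in A2780 OlaR, and RAET1E at 0.0154 and 2.67 ± 0.523.

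PVR was close to level in the first comparison. It was at 20.8, 22.3 and 23.5 FPKM (lowest, median and highest) in C13* shCON and at 19.6, 20.8 and 23.8 in C13* shCEBPB, with overlap. The log2 change of −0.06 ± 0.05 was not called (95% CI −0.16 to 0.04, limma adjusted p = 0.232, exact permutation p = 0.157). For A2780 the values were 26.4, 28.8 and 30.0 and in A2780 OlaR at 16.2, 17.6 and 18.7, where every resistant library was lower and the log2 change was −0.66 ± 0.04 (limma adjusted p = 3.56e-12). PVR spans chr19:44643798-44666162 on the plus strand with 8 exons. Its exons overlap CEACAM19 over 121 bases and a provisional transcript model on the same strand over 2028 bases, and 35.7% of its 50-base windows occur in another annotated gene, 34.5% in that model. Its promoter is shown because it was the only one of the 10 promoters of the 9 members with an entry (CD276 has 2) with a match to the C/EBP motif TTGCNNAA (10.5% of 35116 promoters), in capitals, 219 bases before the start site (RefSeq, GRCh38.p14, chr19:44643660-44643909, plus strand).
PVR: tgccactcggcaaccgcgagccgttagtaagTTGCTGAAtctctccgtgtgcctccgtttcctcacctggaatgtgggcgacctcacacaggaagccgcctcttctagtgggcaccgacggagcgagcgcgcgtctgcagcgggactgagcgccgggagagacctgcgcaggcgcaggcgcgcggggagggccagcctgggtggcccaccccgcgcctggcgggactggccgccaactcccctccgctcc
No match in the others says only that these letters are not in this window. The AP-1 motif TGANTCA was in 7.71% of promoters and in those of ULBP2 and VTCN1, and the NF-κB motif was in 0.558% and in no member's.

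Of the nectins and nectin-like genes related to PVR, 5 of 9 listed names had a row. With shCEBPB all 5 were tested, 2 rose, 2 fell and 1 was not called, and in A2780 OlaR 4 were tested, 3 higher and 1 lower, with a list median of +2.22. NECTIN3 and NECTIN4 were below 1 FPKM in every A2780 library and entered only through A2780 OlaR. Their direction was set by the filter, and that median rests on them. CADM1 likewise entered the first comparison only through C13* shCEBPB. NECTIN1, an adhesion molecule of epithelial junctions, fell from 90.9 ± 3.74 to 8.44 ± 1.13 FPKM with shCEBPB and was at 7.33 ± 0.655 in A2780 and 105 ± 8.41 in A2780 OlaR. NECTIN4 was at 4.06 ± 0.239 in C13* shCON, 1.58 ± 0.737 in C13* shCEBPB, 0.00551 in A2780 and 4.35 ± 0.504 in A2780 OlaR. NECTIN3 was at 0.0229 in A2780 and 3.24 ± 0.702 in A2780 OlaR. NECTIN2, the 1 lower gene there, was at 57.4 ± 4.34 in A2780 and 14.4 ± 1.76 in A2780 OlaR. With shCEBPB it rose from 15.9 ± 0.860 to 26.4 ± 3.24. CADM1, a ligand of the NK and T cell receptor CRTAM, was listed at 0 in all 7 C13* shCON libraries and had 4.83 ± 0.357 in C13* shCEBPB. The squamous marker sum given above was, like NECTIN1 and NECTIN4, higher in C13* shCON and A2780 OlaR than in the other groups. The epithelial sum followed NECTIN1 less closely, at 1776 to 2149 in C13* shCEBPB and 85.1 to 93.4 in A2780. The part of either sum in these differences was not tested. Among 9 further NK receptor ligands, 5 were tested in each comparison, 1 higher, 3 lower and 1 not called with shCEBPB and 4 higher and 1 lower in A2780 OlaR, with list medians of −0.56 and +1.26. CLEC2B, whose change is the second median, and PDGFD were below 1 FPKM in every A2780 library, so the filter set their direction there. With shCEBPB, PDGFD entered only through C13* shCON. HLA-E, the ligand of the inhibitory receptor NKG2A, fell with shCEBPB from 91.0 ± 5.95 to 36.5 ± 2.95. PDGFD, a growth factor that binds NKp44, was at 5.89 ± 0.452 in C13* shCON, 0.00286 in C13* shCEBPB and 5.38 ± 0.613 in A2780 OlaR, and was listed at 0 in all 8 A2780 libraries. PCNA, a replication clamp also listed as an NKp44 ligand, was at 53.7 ± 5.39 in A2780 and 268 ± 20.05 in A2780 OlaR, and CLEC2B, the ligand of NKp80, at 0.416 ± 0.220 and 2.39 ± 0.513.

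The 2 comparisons share no library, so their difference could be tested. In 1 fit of the 4 groups, 8 of 9 members tested had changes that differed, against 89.1% of 12967 genes. For NT5E, CD47 and CD274 the change was negative in the first comparison and positive in the second, with differences of −2.84, −1.66 and −1.14 on the log2 scale, and for CD276 and MICB it was positive and then negative, with differences of +1.51 and +2.32. For MICA and PVR, which were not called with shCEBPB, the difference was +0.60 in each. PDCD1LG2 had a difference of −1.98, which was −6.30 or −11 with a pseudocount of 0.1 or 0.01, and it passed the filter of this fit only through the C13* shCON libraries. The plot of log2 changes sets the 3 contrasts of each gene side by side.

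**Figure D2:**
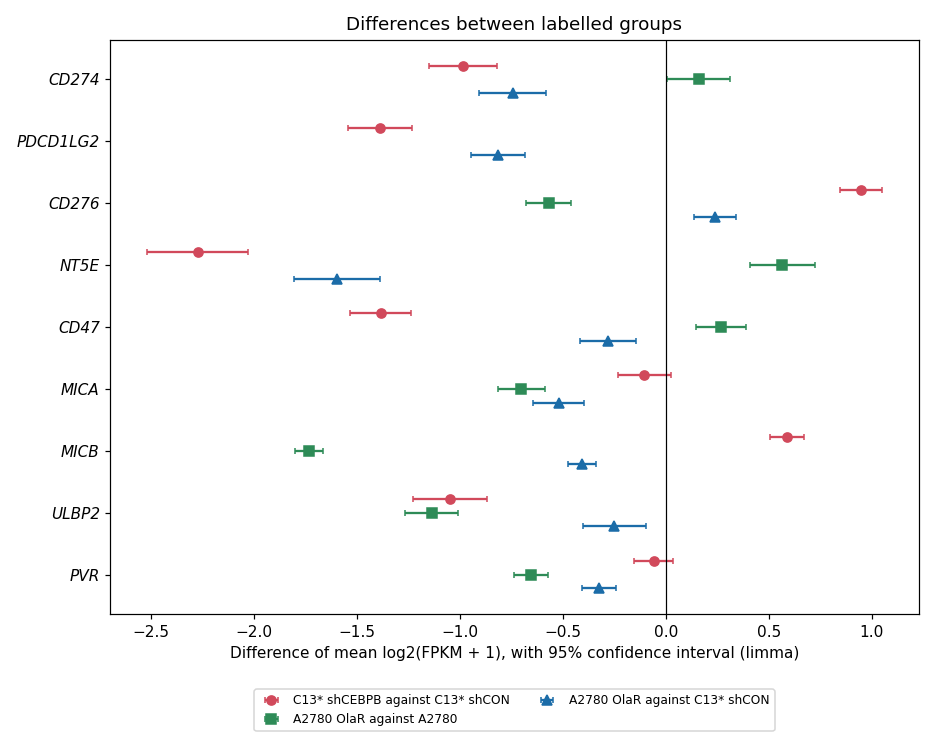
Differences of mean log2(FPKM + 1) for 9 genes (horizontal axis), with 95% confidence intervals from limma: C13* shCEBPB minus C13* shCON (circles), A2780 OlaR minus A2780 (squares) and A2780 OlaR minus C13* shCON (triangles, from the fit of 4 groups). NT5E, CD47 and CD274 lie left of 0 for the circles and right of 0 for the squares, CD276 and MICB the other way round, and ULBP2 lies left of 0 for all 3; PDCD1LG2 has no square because it was too low to be tested there.

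In the order of the 4 groups, C13* shCON was first for NT5E, CD47, CD274 and PDCD1LG2, and A2780 was first for MICA, MICB, ULBP2 and PVR. For CD276 C13* shCEBPB (51.2 ± 3.67) was above A2780 (46.3 ± 2.56), followed by A2780 OlaR (30.98 ± 2.86) and C13* shCON (26.0 ± 1.32), and each neighbour differed in the fit of 4 groups (adjusted p = 0.00970, 1.95e-12 and 0.000368). In that fit 84.3% of 12967 genes were called between C13* shCEBPB and C13* shCON, 88.0% between A2780 OlaR and A2780, 87.6% between A2780 and C13* shCON, 88.0% between A2780 and C13* shCEBPB and 84.8% between A2780 OlaR and C13* shCEBPB. For MICB all neighbours were called and no libraries of neighbouring groups overlapped, in the order A2780 (28.1 ± 0.869), C13* shCEBPB (16.5 ± 0.642), C13* shCON (10.6 ± 0.442) and A2780 OlaR (7.77 ± 0.345). All neighbours were also called for CD47, in the order C13* shCON (21.9 ± 1.09), A2780 OlaR (17.9 ± 1.92), A2780 (14.6 ± 0.915) and C13* shCEBPB (7.80 ± 1.11), and for ULBP2, in the order A2780 (14.0 ± 1.04), C13* shCON (7.13 ± 0.818), A2780 OlaR (5.84 ± 0.689) and C13* shCEBPB (2.95 ± 0.583), but the libraries of A2780 OlaR and A2780 overlapped for CD47 and those of C13* shCON and A2780 OlaR for ULBP2. The neighbours that were not called were A2780 and C13* shCEBPB for NT5E, for CD274 (adjusted p = 0.312) and for PDCD1LG2 (0.821), A2780 OlaR and A2780 for CD274 (0.0539), and C13* shCON and C13* shCEBPB for MICA (0.104) and PVR (0.178).

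A2780 OlaR and C13* shCON, the 2 groups with the most alike profiles, nevertheless differed in these genes. All 9 members tested were called in that contrast, 8 lower and 1 higher in A2780 OlaR, where 37.7% of 12967 genes were called and 20.6% were called lower. The median log2 difference of the 9 members was −0.41, and that of all genes was −0.01. NT5E was at 4.64 ± 0.857 FPKM in A2780 OlaR and 15.9 ± 1.17 in C13* shCON, a log2 difference of −1.60 (95% CI −1.81 to −1.39, adjusted p = 3.33e-14), which ranked 11 of 12967 genes by size. It was the only member among the 69 genes (0.532%) called with at least a 2-fold difference. PDCD1LG2 ranked 131 with −0.82 and CD274 160 with −0.74, while MICA (−0.52), MICB (−0.41), PVR (−0.33), CD47 (−0.28) and ULBP2 (−0.25) followed, and CD276 was higher by 0.24. Libraries did not overlap for 7 of these 9 genes, CD276 and ULBP2 being the exceptions, and for 15.4% of all 12967 genes. PDCD1LG2 entered this fit only through the C13* shCON libraries, since every other library was at most 0.805, so its difference, its rank and its place in these counts rest on the group that let it in. The NT5E difference held in both ranges of library codes, with means of 5.63 and 16.1 for codes 1 to 3 and 4.05 and 15.9 for codes 4 to 8. This contrast was chosen after the profile correlations were seen, and it sets a strain of A2780 against a C13* line, so line, shRNA and olaparib cannot be told apart.

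**Figure D3:**
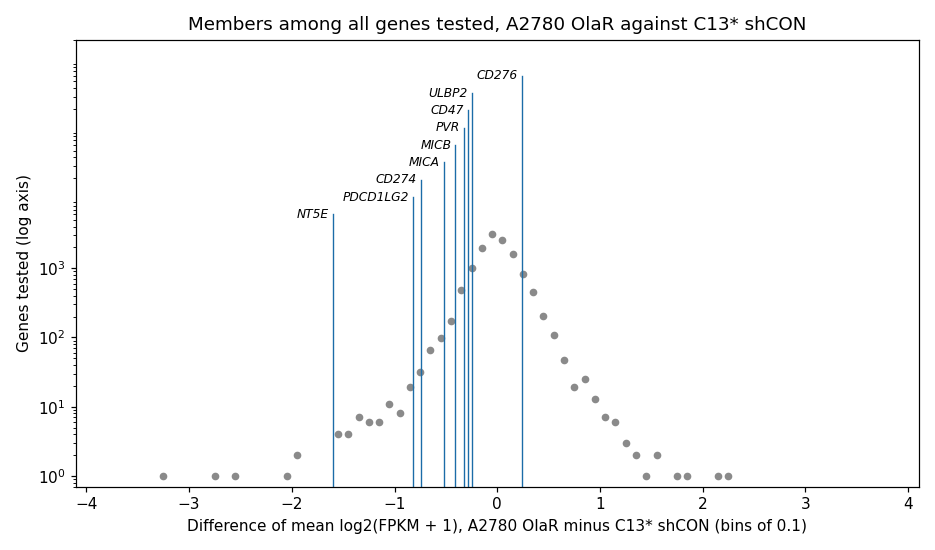
Difference of mean log2(FPKM + 1), A2780 OlaR minus C13* shCON (horizontal axis), for the 12967 genes tested: grey points give the number of genes per bin of 0.1 (vertical log axis), and blue lines mark the 9 members, with line height chosen for legibility. NT5E at −1.60 lies in the lower tail, PDCD1LG2 at −0.82 and CD274 at −0.74 follow, and CD276 at 0.24 is the only member to the right of 0.

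The libraries of a group were not uniform for some members. In C13* shCEBPB, NT5E was at 3.31 to 3.78 FPKM in the 3 libraries with codes 1 to 3 and at 1.75 to 2.48 in the 5 with codes 4 to 8, CD47 at 8.79 to 9.30 and 6.54 to 7.79, and PDCD1LG2 above 0 in the first 3 libraries and listed at 0 in the other 5. CEBPB itself was lower in those same 3 libraries, at 30.2 to 42.1 against 47.7 to 58.7. These values follow the library codes, and a link of CEBPB to NT5E or CD47 within the group was not tested. CEBPB means also differed between codes 1 to 3 and codes 4 to 8 in the other groups, with overlap of libraries. They were 101 and 118 in A2780 OlaR, 105 and 96.5 in A2780, and 92.9 and 80.6 in C13* shCON. In A2780 OlaR, codes 1 to 3 were above codes 4 to 8 for NT5E (5.39 to 6.10 against 3.81 to 4.31), CD47 (19.2 to 20.6 against 15.6 to 18.6) and CD274 (2.99 to 3.46 against 2.01 to 2.64) and below them for MICA (10.5 to 10.9 against 12.03 to 13.6). In A2780 the same 2 ranges were apart the other way for NT5E (2.49 to 2.71 against 2.76 to 3.10) and CD47 (13.3 to 13.8 against 14.5 to 15.9), and in C13* shCON they overlapped for all 10 members. The labels do not say what the codes mark, and their part in the differences was not tested beyond the values within each range given above.

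Among all 12967 genes, those with the pattern most like a member over the 31 libraries were found by Pearson r of log2(FPKM + 1). The libraries form 4 groups and are not independent points, so r mainly describes how the group levels line up. NT5E was nearest to IL1RL1 (r = 0.9731) and SERPINB2 (0.9730), PDCD1LG2 to IL1RL1 (0.9826) and LCP1 (0.9780), and CD274 to NT5E (0.9496) and SERPINB2 (0.9223). SERPINB2 was at 24.2 FPKM in C13* shCON, 2.71 in A2780 OlaR, 0.298 in A2780 and 0.00958 in C13* shCEBPB, which is the same order as for PDCD1LG2 but for the last 2 groups. CD276 was nearest to NOTCH3 (0.9813) and FNDC10 (0.9768), CD47 to CARNMT1 (0.9914) and SLC4A7 (0.9908), and ULBP2 to ACBD7 (0.9831) and HDAC9 (0.9814). MICB was nearest to CCDC84 (0.9923) and ATF3 (0.9896), a stress-induced transcription factor whose mean FPKM was 55.9 in A2780, 25.3 in C13* shCEBPB, 10.9 in C13* shCON and 7.85 in A2780 OlaR. MICA (KLHL18, 0.9349, and INAFM2, 0.8952) and PVR (UFC1, 0.9476, and PFKFB2, 0.9448), like CD274, had no gene at 0.95 or above. For MICB 335 genes reached it and for ULBP2 283. In bulk libraries a lower level in every cell and fewer cells with the transcript cannot be told apart, and surface protein was not part of these data.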

How the data were processed

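mRNA of 31 libraries was sequenced, and the labels gave each library's group and replicate number. As the methods state, the authors sequenced 150-bp paired ends, mapped reads to hg38 with TopHat and counted them with HTSeq. The submitters' processing notes also name FastQC and edgeR. The deposited values are FPKM in 1 table, and the tool, annotation and strand setting behind them are not given in the sources used here. Of 19225 rows, 4 with a repeated symbol were left out. Differences came from limma 3.58.1 in R 4.3.3 (lmFit, then eBayes with a trend) on log2(FPKM + 1), a pseudocount of 1, two-sided, with Benjamini-Hochberg adjustment over all genes tested. Each main comparison used its own 2 groups, with a filter of 1 FPKM in 7 or 8 libraries. Among members and listed genes named above or below, some passed it through only 1 of the groups, so their direction was set by it. With shCEBPB these were PDCD1LG2, ENTPD3, QPCT, CADM1, PDGFD, LGALS9, MMP14, MMP9 and SIRPA. In A2780 OlaR they were ADORA1, ENTPD2, ENTPD3, QPCT, THBS1, RAET1E, NECTIN3, NECTIN4, PDGFD, CLEC2B, LGALS3, LGALS9, CD70 and HCST. The test of the difference of the 2 changes and the order of groups used 1 fit of all 31 libraries (at least 1 FPKM in 7). Exact permutation tests were two-sided, on the difference of means of log2(FPKM + 1). The fit was tested on simulated data first. Adjusted p-values in the text without a tool name are limma's.

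FPKM hold no read totals, so no counting intervals are given. Positions and exons came from GENCODE 44 on hg38, which matched 18278 genes (95.1%). Promoters came from RefSeq for 9 of the 10 members; that of PDCD1LG2 was not used here. Named genes were the 10 members, CEBPB, up to 3 genes per pathway list and comparison with a called log2 change of at least 1, and the 2 genes most like each member. Other genes named for context were chosen after their values were seen. These were PTPRC, PAX8, FOLR1, MSLN, COL3A1, QPCTL, NECTIN2, RAET1G and RAET1L. Single markers were also named from the epithelial (EPCAM, KRT7, KRT8, KRT18, KRT19 and CDH1) and mesenchymal (VIM, ZEB1, SNAI2, FN1 and CDH2) lists. The same holds for the squamous list (KRT5, KRT6A, KRT14, KRT17, TP63 and SFN). The members, gene lists and comparisons were chosen with earlier results of these data known, and the contrast of A2780 OlaR with C13* shCON was added after the profiles were seen. Alternatives were other pseudocounts, filters, scalings, 1 fit of 4 groups, replicate blocks, ranges of library codes, a fold threshold and leaving out C13* shCON replicate 1. Same-numbered libraries did not deviate together on average (mean r −0.148 and −0.233), so the numbers were not shown to pair them. Python 3.11.15, numpy 2.4.6, pandas 2.3.3, scipy 1.17.1 and matplotlib 3.10.9 were used.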

Additional observations from a re-analysis of the deposited data

Results flagged for a closer look

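Of 40 sets of libraries (10 genes in 4 groups), 4 had a library far from the rest by Dixon's test, and chance flags about 1 in 20. These were CD274 in A2780 replicate 1 (1.81 FPKM, next lowest 2.20), MICB in C13* shCON replicate 7 (9.68, next lowest 10.6), ULBP2 in C13* shCEBPB replicate 8 (4.29, next highest 3.06), and VTCN1 in A2780 replicate 2 (0.0173, with the other 7 libraries at 0).

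The change with shCEBPB and the change in A2780 OlaR differed for 8 genes in the limma fit of 4 groups. The difference of the log2 changes, the first minus the second, was −2.84 for NT5E (adjusted p = 8.16e-19), −1.98 for PDCD1LG2 (−6.30 or −11 with a pseudocount of 0.1 or 0.01), −1.66 for CD47, −1.14 for CD274, +0.60 for PVR, +0.60 for MICA, +1.51 for CD276 and +2.32 for MICB. The libraries of these groups also differ over most genes, as given above, and the part of that in these differences was not tested.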

How the results depend on the processing

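With a change of at least 2-fold the genes called went from 10166 to 3539 with shCEBPB and from 11190 to 4446 in A2780 OlaR, and the members called from 7 to 4 and from 8 to 2. All 52 other counts under the alternatives lay within 1.5 times their main value, and so did those without C13* shCON replicate 1, where 7 members were called and the changes of 8 differed. For single members, 235 of 246 alternative values kept their direction and their side of the threshold. The exceptions were 8 for CD274 in A2780 OlaR, where the call was lost, and 3 for the difference of the 2 changes of ULBP2, which was −0.0027 and −0.016 with pseudocounts of 0.1 and 0.01 and 0.23 (adjusted p = 0.0410) after quantile normalization. The cause was not tested. With a replicate block, 9885 and 10960 genes and 7 and 7 members were called and the changes of 8 members differed. The only call of a member lost under the block was CD274 in A2780 OlaR (adjusted p = 0.0546). Same-numbered libraries were not shown to pair, since 2 of 7 and 1 of 8 pairs had a correlation over 0.1, and 1 and 0 libraries correlated best with their own number. Without a filter 8 and 9 members were called. FPKM below about 0.1, as for VTCN1 and PDCD1LG2, rest on few reads, whose number is unknown. Leaving out each other replicate in turn was not run, since these groups hold 7 or 8 libraries.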

Other observations

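Other checkpoint ligands, shedding enzymes and receptors were measured in the same libraries. Of 11 other checkpoint ligands listed, 6 were tested in each comparison, 4 higher and 2 lower with shCEBPB and 2 higher and 4 lower in A2780 OlaR, with list medians of +0.64 and −0.77. The 2 higher in A2780 OlaR, LGALS3 and LGALS9, were below 1 FPKM in every A2780 library. CD70, among the lower, entered only through A2780. With shCEBPB both lower genes, LGALS9 among them, entered only through C13* shCON. The filter set the direction of all of these. With shCEBPB, TGFB1, a cytokine that suppresses lymphocytes, rose from 18.5 ± 0.798 to 56.0 ± 4.45 FPKM, TNFSF9, the ligand of the costimulatory receptor 4-1BB, rose from 2.68 ± 0.326 to 7.68 ± 1.09, and LGALS9, a ligand of TIM-3, fell from 1.72 ± 0.266 to 0.249 ± 0.146. LGALS3, a galectin that binds LAG-3, was at 0.273 ± 0.136 in A2780 and 110 ± 5.05 in A2780 OlaR. CD70 was at 6.21 ± 0.722 in A2780 and 0.0599 in A2780 OlaR, and TNFSF9 at 13.5 ± 0.829 and 2.54 ± 0.362.

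Of 6 listed proteases and partners of the shedding of NKG2D ligands, all 6 were tested with shCEBPB, where 2 rose, 3 fell and 1 was not called, and 5 in A2780 OlaR, where 2 rose and 3 fell. MMP14, a membrane metalloproteinase, was at 86.1 ± 4.93 FPKM in C13* shCON, 0.0887 in C13* shCEBPB, 2.75 ± 0.336 in A2780 and 79.8 ± 8.67 in A2780 OlaR. ADAM10 fell with shCEBPB from 48.7 ± 3.28 to 22.5 ± 3.45, MMP9 rose from 0.149 to 2.39 ± 0.649, and PDIA6, a disulphide isomerase, was at 178 ± 7.69 in A2780 and 79.3 ± 2.26 in A2780 OlaR.

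Of 12 listed receptors of immune cells, 1 was tested in the first comparison and 3 in the second, and all were lower. The receptor tested in the first, SIRPA, entered only through C13* shCON. In the second only SIRPA reached 1 FPKM in both groups, and the others entered only through A2780, so the filter set their direction. SIRPA, the receptor of CD47, was at 3.78 ± 0.278 in C13* shCON, 0.0363 in C13* shCEBPB, 12.1 ± 0.941 in A2780 and 4.05 ± 0.156 in A2780 OlaR. HCST, an adaptor of NKG2D, was at 3.11 ± 0.484 in A2780 and 0.329 in A2780 OlaR. KLRK1 (NKG2D itself) and CTLA4 were listed at 0 in every library.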
